A study of Rattus norvegicus with 12 samples.

Results

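Transcript levels after actinomycin D (ActD) in synaptically silenced rat hippocampal cultures were measured on 6 of the 12 nylon arrays of the series: 3 arrays of Block + ActD cultures and 3 of Block cultures, 1 of each at 5, 30 and 60 min. The cultures came from Sprague Dawley embryos (embryonic day 18.5), were grown for 12 days on a feeder layer of glia, and each sample pooled 3 coverslips according to the labels. Block + ActD cultures received 25 µM ActD on top of the Block cocktail. Block cultures received the cocktail alone, with solvent in place of ActD per the methods of the study. All 6 samples, the Block arm included, had thus been silenced for 3 h with 50 µM D-APV, which blocks NMDA receptors, 40 µM CNQX, which blocks the other ionotropic glutamate receptors, and 100 nM tetrodotoxin, which stops action potentials. The other 6 arrays, BiC/4AP + ActD and BiC/4AP cultures at the same times, were stimulated with 50 µM bicuculline and 500 µM 4-aminopyridine and serve here only for comparison. The methods describe ActD as added before the time zero of the labels, so exposure was longer than the stated times.

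ActD intercalates into DNA and stops RNA polymerases, so that after its addition an mRNA can only decay. Transcripts with short half-lives, among them many immediate early genes and cytokine-like mRNAs with AU-rich elements, are known to disappear first, whereas mRNAs of ribosomal proteins, metabolic enzymes and the cytoskeleton are known to be long-lived. Silencing removes the calcium signals that drive immediate early genes, so that their mRNAs start from a low level in such cultures. An array scaled to its own mean reports loss relative to the average transcript only, and loss shared by all transcripts does not appear as a difference between clones.

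Before scaling, the median raw intensity was lower with ActD in 3 of 3 silenced pairs. It was 27.005, 37.4 and 57.6 units on the Block + ActD arrays at 5, 30 and 60 min, against 31.8, 58.5 and 69.76 units on the Block arrays, a ratio of 0.850, 0.640 and 0.826. In stimulated cultures the ratio was 0.812, 1.07 and 1.12. The methods describe a fixed amount of total RNA labelled for each condition. A smaller share of mRNA in that RNA and weaker labelling or exposure cannot be told apart in these raw values. The exact sign-flip permutation test over 3 pairs gave p = 0.25 (two-sided), the smallest it can give. All further values are log2 intensities scaled per array, in which 0 is the mean spot of an array, and a difference is Block + ActD minus Block. The paired arrays correlated at 0.957 to 0.961 over all 9600 spots. Of these spots, 8496 carried 1 human gene symbol (6284 genes), and 6372 of them are called brighter clones here because their mean intensity was above that of the lowest 25% (over 30.3 units) with no placeholder value. Of 14 neuron marker genes, 13 or 14 exceeded the blank spots on each of the 6 arrays, near the share of all named clones (91.6% to 97.2%). GFAP of astrocytes had a mean intensity of 88.2 units, above the median of 35.9 units of 12 astrocyte marker genes.

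The first question was which transcripts were relatively lost, or spared, over all times once transcription had stopped. No clone passed the adjusted threshold of 0.05 in limma: 0% of the 9600 spots were called lower and 0% higher, with a smallest adjusted p of 0.112. Without the 30 min pair 13 spots passed, and without the 5 min pair 1. At an unadjusted p under 0.05, 224 spots (2.33%) were lower and 344 (3.58%) were higher with ActD. Without the 5 min pair this balance turned, with 384 lower and 299 higher. These counts were 137 and 197 without the 30 min pair, and 77 and 160 with the spread taken from all 12 arrays. The difference had the same sign in all 3 pairs at 1241 spots (12.9%) for lower and 1270 (13.2%) for higher values. All 3 Block + ActD values lay under all 3 Block values at 275 spots (2.86%) and over them at 256 (2.67%). By sign and by overlap, lower and higher spots were about equally frequent, whereas at an unadjusted p under 0.05 more were higher. Each array is 1 pooled sample, so these tests measure the disagreement between times and not the spread between repeated cultures.

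The 8 brighter clones with the smallest p for a lower level are given first. MAPK13, a p38 stress kinase, had levels of -0.67, -0.54 and -0.88 at 5, 30 and 60 min on the Block + ActD arrays, against -0.40, 0.52 and 0.30 on the Block arrays, an estimated difference of -0.83 ± 0.20 (SE, 3 pairs). Its groups did not overlap, but the other clone of MAPK13 gave -0.02 ± 0.17. UBB, a polyubiquitin precursor, had levels of 2.40, 2.49 and 1.85 with ActD, against 2.56, 3.16 and 2.78 without it, and differed by -0.59 ± 0.15. The brightest of its 3 clones also gave a negative difference (-0.39 ± 0.14) and the remaining one a positive one (0.13 ± 0.15). DAP3, a protein of the mitochondrial small ribosomal subunit, had 4.93, 4.39 and 5.03 with ActD, against 5.14, 5.28 and 5.84 without it (-0.63 ± 0.16), with no overlap between the groups.

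The other clones of this set were ERC1, a scaffold of the presynaptic active zone (-0.70 ± 0.19), KXD1, a subunit of a lysosome-positioning complex (-0.74 ± 0.20), ANXA2, a calcium-dependent membrane-binding protein (-0.68 ± 0.19), RPS6KL1 (-0.73 ± 0.21) and COX6B1, a subunit of cytochrome c oxidase (-0.73 ± 0.21). In 5 of the 8, namely MAPK13, DAP3, UBB, ERC1 and KXD1, the difference was small at 5 min (-0.15 to -0.28) and larger at 30 and 60 min (-0.67 to -1.17). COX6B1 and RPS6KL1 showed another course, with -0.20 and -0.07 at 60 min. The ANXA2 clone was contradicted by its 4 other brighter clones, which gave 0.17 to 0.29. KXD1 and COX6B1 likewise had other clones at 0.12 ± 0.16 and 0.13 ± 0.16. ERC1, DAP3 and RPS6KL1 had 1 clone each. The adjusted p of all 8 was 0.632 in limma.

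Among the 8 clones with the smallest p for a higher level, HAGH, a glyoxalase that clears methylglyoxal adducts, had levels of 0.25, -0.39 and -0.57 with ActD, against -0.34, -0.998 and -1.88 without it, a difference of 0.84 ± 0.20. The mean intensity of this HAGH clone was 30.9 units, just over the limit for a brighter clone. NOC2L, a nucleolar repressor of histone acetylation, had levels of 0.72, 0.93 and 0.65 with ActD, against 0.16, 0.30 and -0.03 without it (0.62 ± 0.16). OLA1, a GTP-binding ATPase, had 0.64, 0.89 and 1.42, against 0.45, 0.27 and -0.04 (0.76 ± 0.19). The groups did not overlap for NOC2L and OLA1, but did for HAGH. Other clones of HAGH and OLA1 gave 0.09 ± 0.16 and 0.09 ± 0.19, and that of ANKH gave 0.39 ± 0.17. PCNX2 (0.71 ± 0.18), ENTREP1 (0.70 ± 0.18), TMEM125 (0.52 ± 0.14), ACTA1, the skeletal muscle actin (0.60 ± 0.15), and ANKH, a pyrophosphate transport protein (0.58 ± 0.15), completed the set, again with an adjusted p of 0.632 each.

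**Figure D1:**
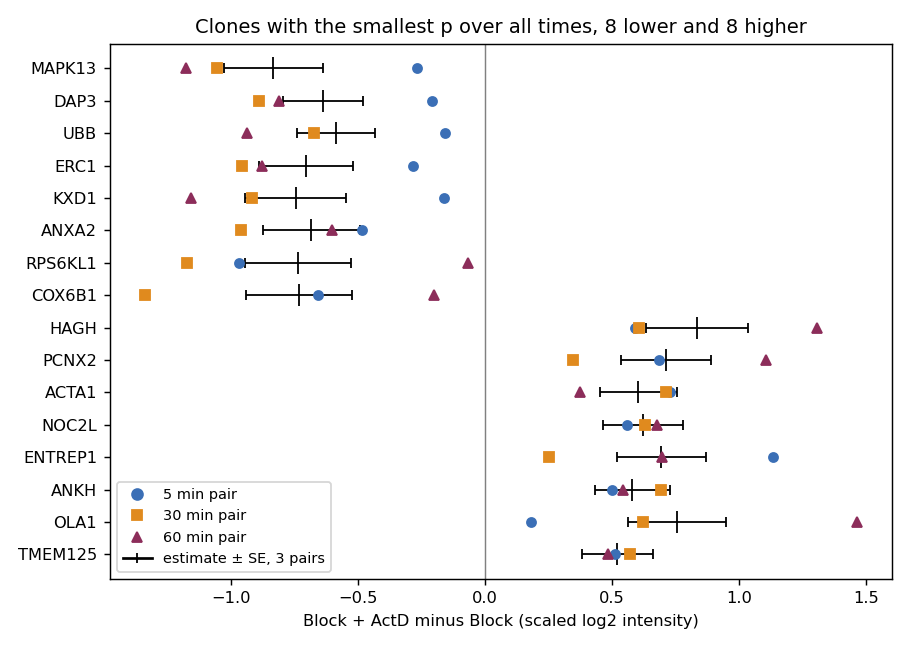
Difference of Block + ActD minus Block (x axis, scaled log2 intensity) of the 8 lower and 8 higher brighter clones with the smallest p over all times (rows). Coloured symbols are the 5, 30 and 60 min pairs and the black bar is the limma estimate ± SE; for MAPK13, DAP3, UBB, ERC1 and KXD1 the 5 min pair lies nearest 0, and NOC2L, ANKH and TMEM125 have their 3 pairs close together.

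Many of these clones were near one another in the numbering of the spots. The table of spots can be read as 384 print blocks of 25 positions. Blocks, positions and the blank position are derived here from the spot number, so physical place on the membrane is inferred. PCNX2, NOC2L and ENTREP1 lay in 1 block, DAP3 and ERC1 in another, and ANXA2 and RPS6KL1 in a further one, so that 7 of the 16 shared a block with another of the 16. For 15 of the 16 clones, the median difference of the remaining spots of the block had the sign of the clone. In the blocks of MAPK13, DAP3, UBB, ERC1 and KXD1, the difference of the remaining spots also fell with time. Their median slopes were -0.34 to -0.62 per hour. Print block and position together accounted for 31.02%, 30.5% and 45.7% of the variance of the difference over brighter clones at 5, 30 and 60 min. When print medians were removed from each array, PCNX2 gave 0.37, NOC2L 0.21, ENTREP1 0.23 and OLA1 0.41, MAPK13 -0.47, DAP3 -0.33, UBB -0.31, HAGH 0.73 and TMEM125 0.46. The signs of all 16 were kept, and the sizes were smaller except for COX6B1 (-0.89) and ANKH (0.62). The part of the print layout in these differences was not tested beyond this correction.

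The study's limit, a z-fold (difference divided by its SD over spots) past 1.4, was applied to each ActD pair without a test. The study used it for the response to activity and required it both with and without ActD. The counts here are thus not the study's calls. At 5 min, 400 spots (4.17%) were lower and 388 (4.04%) higher with ActD past this limit. At 30 min these were 338 (3.52%) and 308 (3.21%), and at 60 min 407 (4.24%) and 442 (4.6%). In at least 2 pairs, 126 spots (1.31%) were lower and 142 (1.48%) higher, and in all 3 pairs 15 (0.156%) and 12 (0.125%). Of these 27 spots, 18 lay in the blank print position, 9 carried a gene name and 0 were brighter clones. Between times, clones that crossed the limit in opposite directions were about as many as those that crossed it in the same direction: for 5 and 30 min, 51 were lower in both, 45 were higher in both and 110 were opposite.

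The brighter clones whose smallest z-fold over the 3 pairs was largest were modest in size. On the lower side these were ANXA2, ATP5MC1 and PSMB4. ATP5MC1, subunit c of the mitochondrial ATP synthase, had levels of -0.37, -0.08 and -0.50 with ActD, against 0.14, 0.37 and 0.04 without it. PSMB4, a proteasome subunit, had -0.33, -0.38 and -0.67, against 0.06, 0.01 and 0.08. Their differences were -0.51, -0.46 and -0.54 for ATP5MC1 and -0.39, -0.39 and -0.75 for PSMB4 at 5, 30 and 60 min. Neither was called (adjusted p = 0.665 and 0.681 in limma). In both, the Block + ActD values lay under all 3 Block values. PSMB4 gave -0.03 when its 8 clones were averaged, and the remaining spots of its print block, which also holds MAPK13, had a median of -0.23.

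Agreement between the pairs, which share no array, was weak. Over the 6372 brighter clones the difference at 5 min correlated with that at 30 min at r = 0.116 and with that at 60 min at -0.139, and 30 and 60 min correlated at 0.097 (Pearson, over clones of the same membranes, no p given). In the brightest 2124 clones the values were 0.268, -0.149 and 0.208. The 220 very bright clones (mean intensity over 1000 units) stood out, with 0.703, 0.267 and 0.506. Of these, 71 (32.3%) were higher with ActD in all 3 pairs and 32 (14.5%) lower, against 13.2% and 12.9% of all spots. The 71 had median differences of 0.29, 0.64 and 0.29 at 5, 30 and 60 min, and they included ACTA1, ANKH, the microglial complement gene C1QB (0.51 ± 0.18) and the presynaptic scaffold PCLO (0.46 ± 0.15). Their place in the inferred print layout was not even: 23 of the 26 very bright clones in print position 3 were among them, against 48 of 194 in the other positions. Position 3 was not alone. Positions 2 (7 of 9), 4 (4 of 7), 6 (3 of 5), 17 (4 of 7), 18 (2 of 2) and 19 (4 of 5) also had high shares. ANKH lay at position 18 and ACTA1 at 19. Positions 13 and 16 had 0 of 20 and 1 of 20. Whether the print position made these clones higher was not tested. In stimulated cultures the same 71 clones had medians of -0.03, 0.08 and -0.23. The 71 were chosen by their sign in silenced cultures, so their medians cannot be used to compare the arms. All 220 very bright clones had medians of -0.05, -0.11 and 0.15 in silenced cultures. In stimulated cultures the 220 had 0.10, -0.49 and 0.07.

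**Figure D2:**
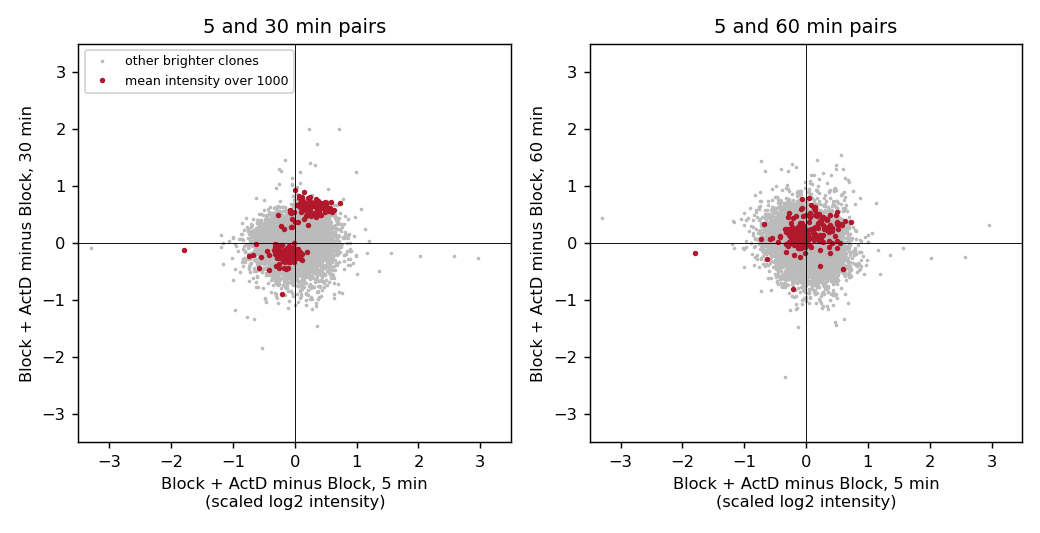
Difference of Block + ActD minus Block at 5 min (x axis) against 30 min (left, y axis) and 60 min (right, y axis), in scaled log2 intensity; each point is 1 brighter clone and red points are the 220 with a mean intensity over 1000. At 30 min the red points form 1 cloud above 0 and another below it, and the grey points show little relation between times; 2 clones lie outside the axes.

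Early-response and short-lived mRNAs, the transcripts for which loss after ActD is best known, were taken as a fixed set of 21 genes with 36 clones. Of the 36, 21 had a negative difference, 4 were lower in all 3 pairs and 6 higher in all 3, with a median of -0.04. Over all spots, 12.9% were lower and 13.2% higher in all 3 pairs. FOS, the AP-1 subunit induced by activity, was lower by almost the same amount in each pair. Its levels were -1.03, -0.68 and -0.44 at 5, 30 and 60 min with ActD, against -0.72, -0.32 and -0.12 without it, at a dim mean intensity of 33.1 units. The differences were -0.31, -0.36 and -0.32, an estimate of -0.33 ± 0.18 (adjusted p = 0.900 in limma), and the groups overlapped, with higher levels at later times in both. In stimulated cultures, FOS differed by -0.19, -0.57 and -0.07. SGK1, a serum- and glucocorticoid-induced kinase, gave -0.09, -0.41 and -0.57, and a NFKBIA clone (the inhibitor of NF-kB, itself a short-lived transcript) gave 0.13, -0.36 and -0.68. In these 2 clones and in the dimmer IER3 clone, an early-response gene (0.09, -0.24 and -0.65), the difference was in falling order from 5 to 60 min. Of the 36 clones, 9 were in falling order and 9 in rising order, against 20.8% and 18.9% of all spots.

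Other members of this set stayed near 0 or went the other way. ZFP36, the AU-rich element binding protein that destabilizes cytokine mRNAs, gave 0.48, 0.57 and 0.22, and its relative ZFP36L1 gave 0.77, 0.09 and 0.13. ARC, a dendritic activity-regulated gene, gave 0.29, 0.06 and 0.05, and NR4A1, an inducible nuclear receptor, 0.35, -0.05 and 0.04. The transcription factor JUN had 1 clone at 0.18, -0.88 and -0.31 and another at -0.19, 0.07 and -0.04, and the 2 MYC clones gave 0.16, -0.12 and -0.21 against -0.33, -0.62 and 0.36. The clones of JUN and of MYC thus did not follow 1 course. Of the genes of lasting expression, the 4 GAPDH clones lay between -0.25 and -0.05 over all times, the 7 ACTB clones between -0.20 and 0.12, and the 2 clones of TUBB3, the neuronal tubulin, at -0.27 and -0.23.

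**Figure D3:**
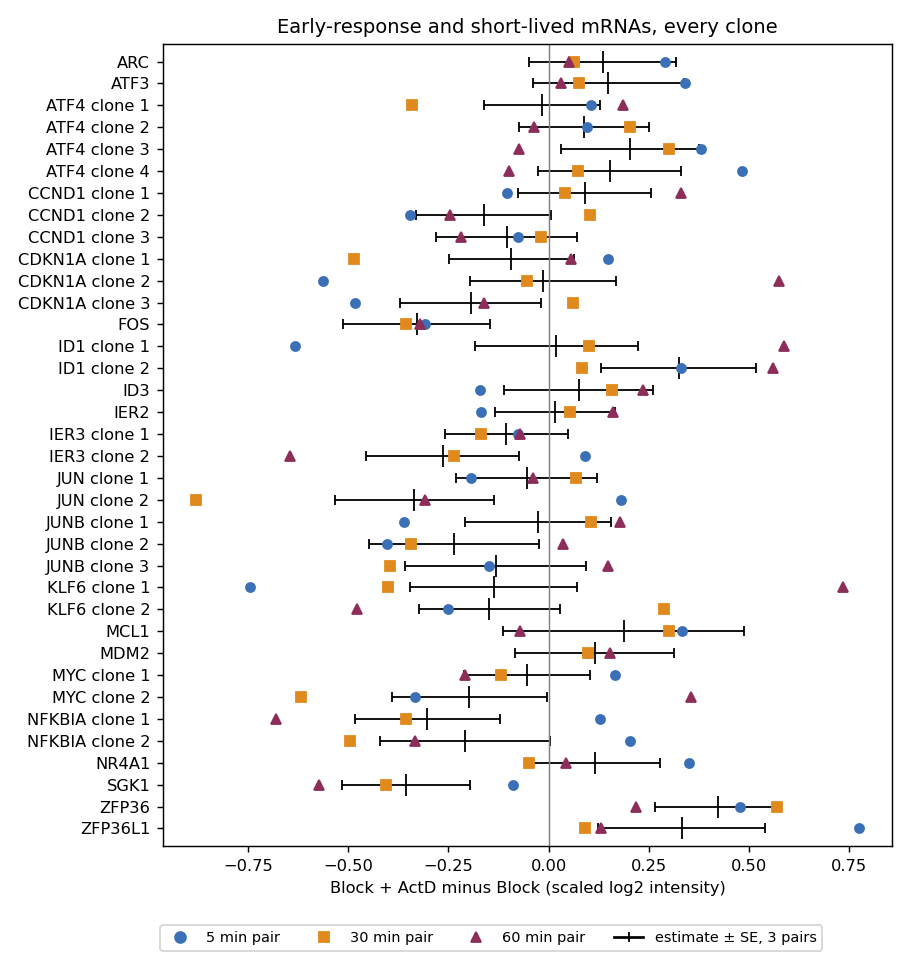
Difference of Block + ActD minus Block (x axis, scaled log2 intensity) for each of the 36 clones of 21 early-response and short-lived genes (rows; clones numbered from the brightest). Symbols are the 5, 30 and 60 min pairs and black bars the estimate ± SE; FOS has its 3 pairs together below 0, ZFP36 has all 3 above 0, and most others straddle 0.

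Counted over the lists, with the brightest clone for each gene, few groups departed from all genes. Of the 6284 genes, 51.6% were lower over all times, with a median of -0.01, and 797 (12.7%) were lower and 903 (14.4%) higher in all 3 pairs. The immediate early list had 14 of 29 genes lower (median 0.01), and the list of short-lived mRNAs with AU-rich elements had 27 of 50 lower (median -0.01). Genes for the transcription machinery had 36 of 60 lower (median -0.04), among them GTF2H2 of the repair and initiation factor TFIIH (-0.36 ± 0.16), with POLR2L, a subunit shared by the RNA polymerases, at 0.30 ± 0.14 (-0.12 in its other clone). Splicing factors and hnRNPs had 45 of 73 lower (median -0.06), with the core spliceosome protein SNRPD2 at -0.49 ± 0.17 and -0.47 ± 0.18 in its 2 clones. C2H2 zinc finger genes, a family known for short mRNA half-lives, had 63 of 114 lower (median -0.04). In all 3 pairs, 21 of them (18.4%) were lower and 14 (12.3%) higher. Such shares were not particular to this list. They were 20% and 11.7% for the transcription machinery, 21.1% and 10.5% for heat shock and stress genes, and 12% and 18% for the AU-rich list. No member of any list passed the adjusted threshold over all times in limma.

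Lists of energy metabolism, the cytoskeleton and synapses gave medians of like size. Oxidative phosphorylation had 28 of 66 genes lower (median 0.04), with ATP5MC1 at the low end and NDUFC2, a complex I subunit, at the high end (0.76 ± 0.22). COX6B1 counted as higher there through its brighter clone. Glycolysis had 6 of 14 lower (median 0.06), with the astrocytic aldolase ALDOC at 0.32 ± 0.15. The cytoskeleton list had 18 of 44 lower (median 0.04), from STMN3, a neuronal microtubule regulator (-0.47 ± 0.16), to the brightest clone of TUBA1B, an alpha-tubulin (0.44 ± 0.16). The 12 other TUBA1B clones lay between -0.29 and 0.03, and 8 of them were below 0. Synaptic vesicle genes were evenly split, 13 of 26 lower, with the SNARE protein STX1A at -0.14 ± 0.15. A dimmer STX1A clone gave -0.37 ± 0.17. The p53 targets had 9 of 18 lower, the proteasome 20 of 37, heat shock and stress genes 20 of 38, nucleolar genes 29 of 52, the mitochondrial ribosome 29 of 55, mRNA decay factors 14 of 29, cell cycle genes 18 of 40 and postsynaptic genes 1 of 6.

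The next question was whether differences grew with time, in either direction. Differences fell in strict order from 5 to 60 min at 20.8% of spots and rose at 18.9%. The linear trend passed the adjusted threshold in limma at 84 spots (0.875%), 32 falling and 52 rising, and at an unadjusted p under 0.05 at 550 falling (5.73%) and 586 rising (6.1%). This fit has 1 residual degree of freedom and borrows nearly all of its spread from other clones. The number of calls depended on the settings: 0 were made when print medians were removed or when the fit took its spread from all 12 arrays, and 1 without the intensity trend. Of the 84, 33 shared a print block with another call. Of the 57 calls among brighter clones, 36 rose and 21 fell, and 8 rested on a single pair (over 1.5 in 1 pair and under 0.5 in the others).

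Single arrays were behind several of the steepest slopes. HLA-DRB4, annotated as a class II antigen chain, had levels of 0.69, 0.73 and 0.89 with ActD, against 3.99, 0.82 and 0.45 without it, so that its rise (3.98 ± 0.36 per hour) came from the 5 min Block array. TAGAP had 0.67, -0.01 and 0.11, against -1.90, 0.21 and 0.35 (-2.97 ± 0.43 per hour), and RELT, of the TNF receptor family, likewise had 1 low value of -1.97 on that array (-2.42 ± 0.48 per hour). APH1A, a subunit of gamma-secretase, fell through its 60 min pair (0.49, 0.20 and -1.44), and its 4 other brighter clones had slopes of the other sign. Steadier falls were those of GNL1, a GTP-binding protein (1.19, 0.04 and -0.53), and DOHH, the hydroxylase that completes hypusine (0.47, -0.54 and -1.38), each printed in a block whose remaining spots had a median slope of -0.61 and -0.62 per hour.

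Rising clones included the transporter of peroxisomes ABCD3 (-0.72, -0.03 and 1.44), the copine CPNE3 (-0.40, 0.10 and 1.30), the nucleosome assembly protein NAP1L4 (-0.74, -0.19 and 0.89) and cytoplasmic gamma-actin, ACTG1. CPNE3 was printed beside OLA1, in a block whose remaining spots rose by 0.75 per hour. ACTG1 had levels of 2.40, 2.92 and 3.54 at 5, 30 and 60 min with ActD, against 3.05, 2.68 and 2.27 without it, a slope of 2.10 ± 0.34 per hour. Of its 8 other brighter clones, 7 had a rising slope as well.

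Genes with several clones allow this course to be seen apart from single spots. The 9 brighter ACTG1 clones had median levels of 1.79, 2.36 and 2.15 with ActD, against 2.41, 2.17 and 1.97 without it. At 5 min 8 of the 9 were lower with ActD (median difference -0.46), and at 30 and 60 min 8 of the 9 were higher (0.26 and 0.37). The elongation factor EEF1A1 had 9 of 9 clones lower at 5 min (median -0.43) and 3 of 9 at 60 min (0.17), and all 9 had a rising slope. RPS3A, of the small ribosomal subunit, had 8 of 8 lower at 5 min (-0.47) and 3 of 8 at 60 min (0.04). The elongation factor EEF1G had 6 of 8 lower at 5 min and 8 of 8 higher at 60 min (medians -0.12 and 0.21). Clones of 1 gene share its sequence and membrane, so they repeat the measurement within an array and are no further samples. These 4 genes were chosen after their values were seen, for this course. Other ribosomal protein genes with many clones went the other way at 60 min: RPL3 was lower in 9 of 11 clones (median -0.31), with a falling slope in 8, and RPL4 in 5 of 7 (-0.17), with a falling slope in 5.

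Over all 39 genes with 5 or more brighter clones, every clone was lower at 5 min for 8 genes and higher for 1, every clone was lower at 30 min for 3 and higher for 2, and every clone was lower at 60 min for 1 and higher for 1. TUBB, a beta-tubulin, was lower in 5 of 5, 4 of 5 and 4 of 5 clones at 5, 30 and 60 min (medians -0.26, -0.20 and -0.21), and PFKL, the liver-type phosphofructokinase, in 5 of 5, 4 of 5 and 5 of 5 (-0.09, -0.16 and -0.10). Both genes thus had most clones below 0 at each time. NPM1, a nucleolar chaperone, was higher in 11 of 11 clones at 30 min (0.17), but in 4 of 11 at 5 min and 5 of 11 at 60 min. ACTB was lower in 5 of 5 at 5 min (-0.37) and higher in 4 of 5 at 30 min (0.09), a course like that of ACTG1 up to that time, whereas at 60 min 4 of 5 were lower (-0.09).

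**Figure D4:**
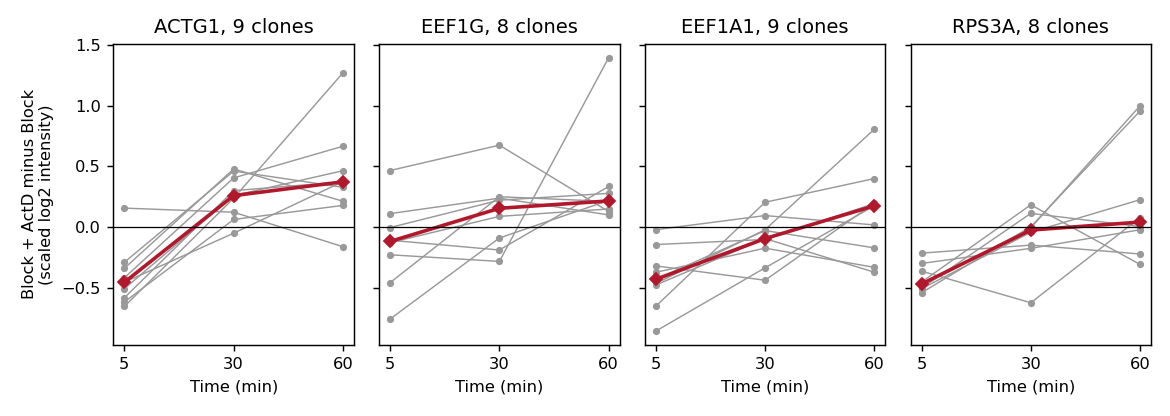
Difference of Block + ActD minus Block (y axis, scaled log2 intensity) against time (5, 30 and 60 min) for the brighter clones of ACTG1, EEF1G, EEF1A1 and RPS3A. Grey lines are single clones and the red line their median, which lies below 0 at 5 min and above 0 at 60 min for all 4 genes.

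Ribosomal proteins followed the same course as a group. At 5 min 51 of 62 genes (82.3%) were lower with ActD, with a median of -0.31, whereas at 30 min 49 and at 60 min 41 of 62 were higher, with medians of 0.21 and 0.16. All genes together had medians of 0.01, 0.00 and -0.00 in the 3 pairs. The median level of the 62 genes was 2.02, 2.32 and 2.17 with ActD, against 2.42, 2.12 and 2.13 without it. The 5 min Block array held the highest of the 12 medians, and the 5 min Block + ActD value of 2.02 was near that of both stimulated 5 min arrays (1.93 with ActD and 2.01 without it). Over all times 31 of 62 were lower, with a median of 0.00, and 3 were lower and 4 higher in all 3 pairs. Of the 6372 brighter clones 57 were trend calls, and 36 of the 57 rose. Among these calls were 8 ribosomal protein clones of 7 genes, from a list of 152 clones, and all 8 rose. Examples were RPL18 (1.501 ± 0.34 per hour, adjusted p = 0.0039 in limma), RPS6 (1.46 ± 0.34, 0.00584) and RPL35 (1.37 ± 0.35, 0.0208). The call for these clones was lost when print medians were removed, but the list medians were then -0.31, 0.15 and 0.17.

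Translation factors had a like course, with 32 of 46 genes lower at 5 min (median -0.22) and 31 and 26 higher at 30 and 60 min (0.11 and 0.06). Their 3 trend calls among brighter clones, from a list of 90 clones, were EEF1A2, EEF1B2 and EEF1G, and these also rose. The EEF1G clone was printed in 1 block with called clones of RPS3A and RPS9. Neuron markers differed from this course: 5 of 14 were lower at 5 min (median 0.08), 13 of 14 at 30 min (-0.18) and 7 of 14 at 60 min (-0.08). Of the 14, 1 was lower in all 3 pairs, STMN3 (-0.20, -0.26 and -0.95). UCHL1, a neuronal ubiquitin hydrolase, gave 0.58, -0.17 and -0.43 in its brightest clone, -0.60, -0.35 and -0.13 in the next and 0.10, 0.06 and -0.77 in the third. Of 12 astrocyte markers 6 were lower over all times, of 7 oligodendrocyte markers 5, of 7 microglia markers 3, and of 10 fibroblast and vessel markers 8. Fewer cells of a type and less RNA per cell cannot be told apart here, and the part of cell composition in these differences was not tested.

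**Figure D5:**
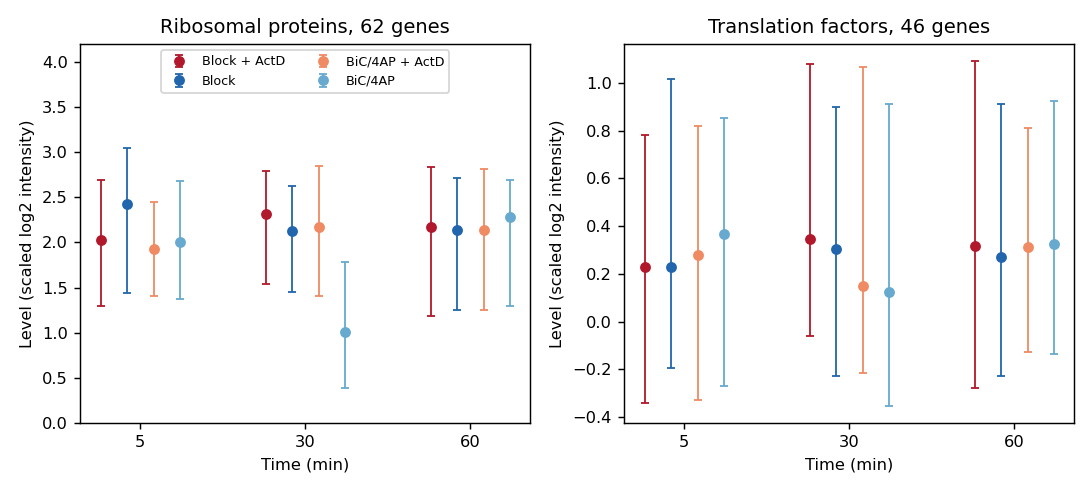
Median level (points) and quartiles (bars) of 62 ribosomal protein genes (left) and 46 translation factor genes (right) on each array (y axis, scaled log2 intensity) by time (x axis) for Block + ActD, Block, BiC/4AP + ActD and BiC/4AP cultures. The Block array has the highest ribosomal protein median at 5 min (2.42, against 2.02 with ActD), and the 30 min BiC/4AP array stands far below the rest (1.01).

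Finally, the ActD difference of silenced cultures was set against that of stimulated cultures. No clone passed the adjusted threshold for a difference between the arms in limma (0%), with a smallest adjusted p of 0.999 and 248 spots (2.58%) at an unadjusted p under 0.05. This does not show that the arms responded alike. Over the brighter clones the differences of the arms, which share no array, correlated at -0.016 at 5 min, 0.326 at 30 min and 0.118 at 60 min. The 30 min BiC/4AP array stood apart in ribosomal proteins (1.01), and without it 0 clones passed either, with 421 at an unadjusted p under 0.05. NOC2L had the smallest p of the 16 named clones for this comparison, at 0.62 ± 0.16 in silenced and -0.40 ± 0.17 in stimulated cultures. It was negative in all 3 stimulated pairs. The 16 were chosen by their silenced difference, which is part of this comparison, so a small p among them is favoured by that choice. The remaining spots of the NOC2L print block had a median silenced difference of 0.41.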

How the data were processed

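Nylon arrays of 9600 spotted cDNA clones, named by human gene symbols, were hybridised with radiolabelled rat cDNA. The authors deposited 1 raw linear intensity per spot and array, identical to the series matrix at 100% of values, with 10 as a placeholder for unmeasured spots. Intensities were log2 transformed, converted to a z-score per array and brought back to a log2 scale with the average array SD (1.75). The difference of Block + ActD and Block was fitted in limma 3.58.1 (R 4.3.3) with time as a block (2 residual degrees of freedom), as a linear trend with hours (1), and against stimulated cultures on 12 arrays (6), with Benjamini-Hochberg adjustment over all 9600 spots at 0.05. The scripts were tested on simulated data.

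Named genes were the 8 lower and 8 higher brighter clones of smallest p with the same sign in all 3 pairs, the 5 falling and 5 rising clones of smallest trend p in strict time order, the 3 of largest smallest z-fold on each side, up to 2 per direction in each gene list, and a fixed set of genes. Members and lists were chosen with earlier results of these data known. Each array is 1 pooled sample, so p-values measure only the spread between single samples, which may be technical. Labels and methods differ on pooling. Alternatives covered normalization, print correction, offset, dim spots, spread estimate, clone averaging and leaving out each time.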

Additional observations from a re-analysis of the deposited data

Results flagged for a closer look

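For 9 of the 116 named clones, the ActD difference had one sign in all 3 silenced pairs and the other in all 3 stimulated pairs. These clones had been named by their silenced values, which favours the same sign in the silenced pairs. The same count over all spots was not made, so the 9 cannot be set against a background share. The difference between the arms (silenced minus stimulated, scaled log2) was tested in limma on 12 arrays and gave an adjusted p of 0.999 for each, so none passed.

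Positive in silenced cultures were NOC2L (1.02), ENTREP1 (0.97) and COX7A2L, a cytochrome c oxidase assembly factor (0.68). MCM7, of the replicative helicase (0.60), and MRPS12, of the mitochondrial ribosome (0.46), were positive as well. COX7A2L, MCM7 and MRPS12 were each 1 of 2 clones, and the other clones gave 0.20, 0.29 and -0.13 in silenced cultures. NOC2L, ENTREP1 and COX7A2L were printed in the same block. Negative in silenced cultures were 1 of 2 clones of SNRPD2 (-0.98) and 1 of 3 clones of UCHL1 (-0.76). CLU, the secreted chaperone clusterin (-0.68), and the dimmest brighter clone of PFKL (-0.66) were negative as well. The other SNRPD2 clone gave 0.05, -0.75 and -0.71 at 5, 30 and 60 min in silenced cultures. CLU had differences of -0.61, -0.39 and -0.38 at 5, 30 and 60 min in silenced cultures and 0.27, 0.21 and 0.19 in stimulated cultures. Its mean intensity was 31.1 units, just over the limit for a brighter clone.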

How the results depend on the processing

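Pairing by replicate number was not possible because all samples carry the same number, so the groups share fewer than 2 numbers. Pairs were formed by time instead.

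The count of clones passing over all times (0) ranged from 0 to 13 when 1 time was left out (13 without the 30 min pair, 1 without the 5 min pair) and was 0 under the other alternatives. At an unadjusted p under 0.05, the 224 lower and 344 higher spots became 139 and 206 with clones averaged per gene. The comparison with stimulated cultures gave 0 under every alternative, and its 248 spots at an unadjusted p under 0.05 became 376 with print medians removed. Of the 27 spots past a z-fold of 1.4 in 3 pairs, the count became 6 without dim spots, 14 with an offset and 7 at a z-fold of 2. The 84 trend calls became 48 without dim spots, 30 with clones averaged per gene, 17 with cyclic loess, 5 with an offset, 1 without the intensity trend, and 0 with print medians removed or with all 12 arrays. Averaging clones turned the sign of ANXA2 (0.058), BAIAP2 (0.018), CNP (0.060), DNAJA2 (-0.080), EIF6 (-0.017), TAGLN (-0.083) and TUBA1B (-0.032). Removing print medians turned COX7A2L (-0.0036), MRPS25 (0.072), RPL9 (-0.039) and SPARC (0.11). With 1 time left out, BAIAP2 ranged from -0.38 to 0.050 (0.014 without the 5 min pair), ENO2 from -0.14 to 0.25, HOMER3 from -0.028 to 0.13, RPS9 from -0.035 to 0.72, SOX10 from -0.020 to 0.23, STMN2 from -0.059 to 0.24, TAGLN from -0.0016 to 0.11 and TYROBP from -0.33 to 0.045. The causes were not tested. The smallest adjusted p of a named clone over all times under any alternative was 0.0937 (ENTREP1, without the 30 min pair). Single arrays per time and signals near background limit the precision.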
